A study of Mus musculus with 4 samples.

Results

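The genes described here are 8 Kruppel-like factors other than the erythroid factor Klf1: Klf2, Klf3, Klf4, Klf6, Klf7, Klf9, Klf10 and Klf13. They were taken by gene symbol, through every probe set that lists 1 symbol, from a table of 41345 probe sets and 22180 genes, which gave 9 probe sets. Klf7 had 2 probe sets and each of the other genes had 1. The members were chosen with the differences between these arrays already known, so all differences below are descriptions and none is tested. The study hybridised RNA of mouse marrow cells to Affymetrix Mouse Gene 2.0 ST arrays, 4 in all and 1 per genotype: Fancd2 knockout (Fancd2KO), Foxo3a knockout (Foxo3aKO), Fancd2 and Foxo3a double knockout (DKO) and wild type (WT). All mice were 2 months old, and mononuclear cells were sorted as c-Kit-positive and Sca-1-positive cells without lineage antigens or CD34, a stem cell gate that the labels call SLAM. Fancd2 acts in the Fanconi anaemia pathway of DNA crosslink repair, and Foxo3a, the product of Foxo3, is a forkhead factor that helps to keep stem cells quiescent. The sources used here do not state the alleles, the strain or sex of the mice, or how many mice and cells went into an array. With 1 array per genotype no difference has a replicate check, and in sorted bulk RNA fewer cells of a type and less RNA per cell cannot be told apart.

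Kruppel-like factors are transcription factors with a conserved run of zinc fingers at the C terminus that binds GC boxes and CACCC elements. Outside the zinc fingers they differ: Klf2, Klf4, Klf6 and Klf7 are mostly known as activators, Klf3 recruits the co-repressor CtBP, and Klf9, Klf10 and Klf13 recruit the co-repressor Sin3A. In blood, Klf2 is known for T cell quiescence and trafficking, Klf4 for the formation of monocytes, and Klf3 for B cell and erythroid gene control. Klf2, Klf4 and Klf6 are also induced quickly in many cell types by stress and by handling of tissue.

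Promoters are shown for the members whose signal, by the brightest probe set, ranged over at least 1 log2 across the arrays (Klf2, Klf4, Klf6 and Klf9). The dimmer Klf7 probe set ranged over 1.38 log2, but the brighter one over 0.72, and Klf7 is not shown. The sequences are from RefSeq, build GRCm38.p6, 250 bases before to 50 after the gene start, 5′ to 3′ on the gene's strand. Capitals mark matches on either strand to the element CACCC, to the GC box GGGCGG, to the cyclic AMP response element TGACGTCA, to the forkhead element GTAAACA, to the MEF2 element and to the CArG box.
Klf2, chr8:72318812-72319111, + strand: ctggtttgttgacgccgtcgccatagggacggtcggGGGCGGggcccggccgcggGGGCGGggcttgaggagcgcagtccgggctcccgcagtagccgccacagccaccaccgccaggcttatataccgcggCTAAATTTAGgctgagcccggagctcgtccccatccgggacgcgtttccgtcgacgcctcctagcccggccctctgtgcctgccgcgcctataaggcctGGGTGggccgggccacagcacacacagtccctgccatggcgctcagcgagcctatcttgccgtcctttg
Klf4, chr4:55532426-55532725, - strand: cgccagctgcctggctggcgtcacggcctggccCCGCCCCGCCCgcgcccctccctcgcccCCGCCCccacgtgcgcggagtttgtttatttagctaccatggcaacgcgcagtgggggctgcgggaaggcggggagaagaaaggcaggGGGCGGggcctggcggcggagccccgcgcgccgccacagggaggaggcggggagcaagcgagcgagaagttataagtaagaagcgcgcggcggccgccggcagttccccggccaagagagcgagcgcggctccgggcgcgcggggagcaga
Klf6, chr13:5861239-5861538, + strand: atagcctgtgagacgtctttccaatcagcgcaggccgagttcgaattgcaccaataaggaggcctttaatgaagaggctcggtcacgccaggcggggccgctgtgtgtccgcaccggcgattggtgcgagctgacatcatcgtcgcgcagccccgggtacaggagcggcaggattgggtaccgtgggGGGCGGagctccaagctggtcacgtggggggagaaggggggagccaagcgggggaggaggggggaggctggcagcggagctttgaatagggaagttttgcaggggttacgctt
Klf9, chr19:23140976-23141275, + strand: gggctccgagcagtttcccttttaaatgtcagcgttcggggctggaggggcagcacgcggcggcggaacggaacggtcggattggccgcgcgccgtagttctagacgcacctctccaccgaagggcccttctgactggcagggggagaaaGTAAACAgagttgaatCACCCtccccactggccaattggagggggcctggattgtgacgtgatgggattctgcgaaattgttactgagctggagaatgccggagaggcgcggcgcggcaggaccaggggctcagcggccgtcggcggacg
No match to one motif overlapped a match to another in these 4 promoters. GC boxes stood in 3 of them, with 2 matches in Klf2, 4 in Klf4 and 1 in Klf6, and 35.7% of the 32851 promoters in the RefSeq table held one. The G and C content was 69.3% in Klf2, 74.3% in Klf4, 63.0% in Klf6 and 63.3% in Klf9. The median over all promoters was 52.7%, so these shares are not from promoters of matched content. Klf2 held the MEF2 element CTAAATTTAG, whose first base lies at -118 from the start, and 3.19% of promoters held such an element. Klf9 held the forkhead element GTAAACA at -100, a sequence found in 3.65% of promoters. CACCC was found in Klf2 and Klf9 and in 57.5% of all promoters. TGACGTCA (1.79% of promoters) and the CArG box (1.63%) had 0 matches in these 4. A match is a string of letters and does not show that a factor binds there. RefSeq promoters were matched for 7 of the 8 members, and none was printed for Klf10.

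The arrays were alike in overall signal, with a median of 5.27 log2 on the Fancd2KO array, 5.34 on Foxo3aKO, 5.31 on DKO and 5.28 on WT. A gene was compared when its highest value reached the median of all gene values, 5.51 log2. This floor was reached by 12041 genes and by all 8 members. Control probes with 17 or more G and C bases had median signals of 6.18 in Fancd2KO, 5.74 in Foxo3aKO, 6.39 in DKO and 6.25 in WT. For the targeted genes, Fancd2 stood at 6.08 in Fancd2KO, 6.67 in Foxo3aKO, 5.84 in DKO and 6.56 log2 in WT. Foxo3 stood at 6.72, 6.64, 6.51 and 6.62 on the same arrays. It thus differed from WT by 0.02 in Foxo3aKO and by -0.10 in DKO. Which exons these probe sets cover was not known, so they do not check the labels. As a scale for technical error, 728 genes with exactly 2 probe sets were used: the SD of their disagreement about the difference from WT was 0.49 log2 in Fancd2KO, 0.47 in Foxo3aKO and 0.52 in DKO. Probe set disagreement below means this SD. A small share of the 728 genes disagreed by more than about 0.92 log2 in Fancd2KO, 0.94 in Foxo3aKO and 0.96 in DKO. A difference over the SD can therefore still lie within disagreement seen between probe sets. The transcripts of the sorting antigens c-Kit and CD34 were both well over the floor, with Kit at 10.41, 10.57, 10.43 and 10.67 and Cd34 at 10.28, 9.67, 10.36 and 10.79 log2 in Fancd2KO, Foxo3aKO, DKO and WT. Cd34 transcript was thus detected on every array although the gate is CD34-negative. Of 12 gate and stem cell markers 10 were measured, and 10 of 10 were over the floor on every array. Their median differences from WT were 0.02 in Fancd2KO, -0.09 in Foxo3aKO and -0.04 in DKO. In each knockout 1 of them was at least 2-fold apart: Slamf1 by 1.11 in Fancd2KO, Cd34 by -1.12 in Foxo3aKO and Tek by -1.25 in DKO.

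Both single knockouts had higher signals than WT for the activators Klf2, Klf4 and Klf6 and for the repressor Klf9, while the double knockout lay near WT for Klf6, below it for Klf2 and between WT and the single knockouts for Klf4 and Klf9. Against WT, 3 of 8 members were at least 2-fold higher in Fancd2KO, where 1.68% of the 12041 genes compared were. In Foxo3aKO 4 of 8 were, where 1.81% of all genes were, and 3 were with each array centred on its median, where Klf9 differed by 0.99. In DKO 0 of 8 were at least 2-fold higher (1.37% of all genes) and 0 of 8 at least 2-fold lower (1.72%). No member was at least 2-fold lower in Fancd2KO (1.35% of all genes) or Foxo3aKO (1.3%). Since the members were picked from these contrasts, the shares are not evidence about the family. The comparisons with WT all use the same WT array and share its error, so their likeness is not independent support. The median member difference from WT was 0.68 log2 in Fancd2KO, 0.75 in Foxo3aKO and -0.03 in DKO, beside medians over all genes of -0.01, -0.04 and -0.03.

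**Figure D1:**
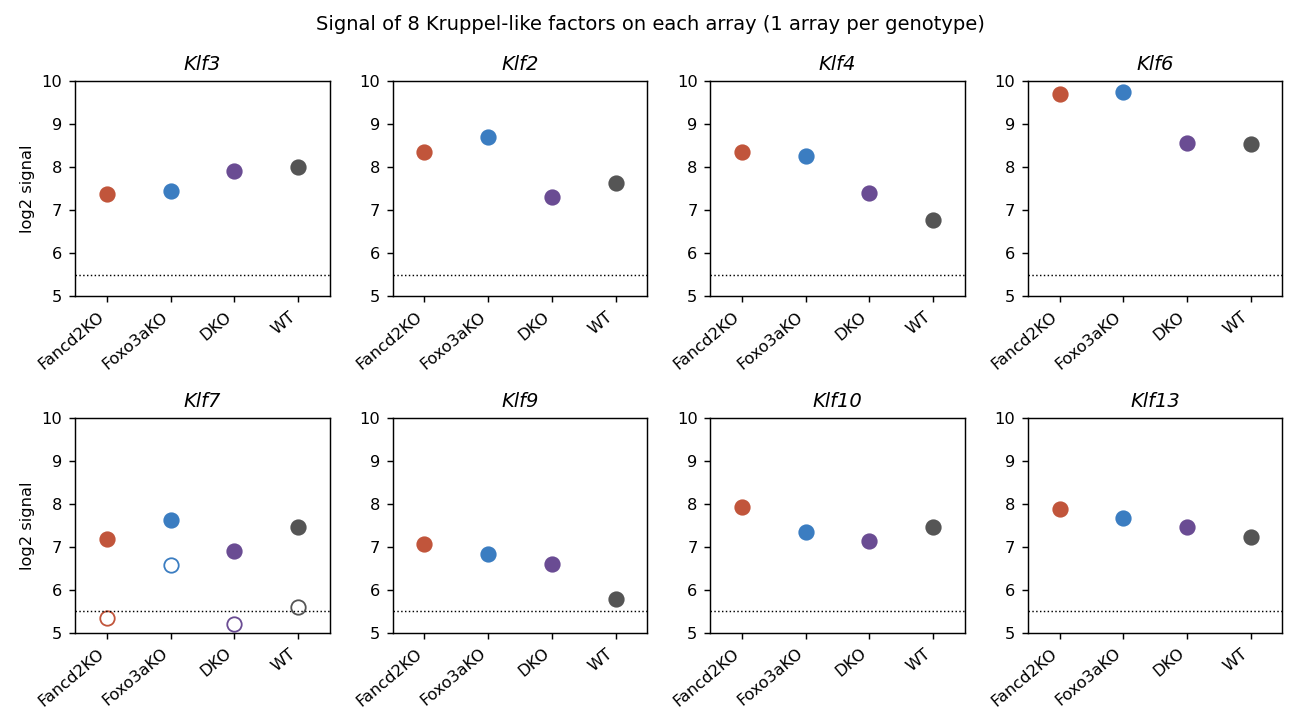
Signal of each Kruppel-like factor (y axis, log2) on the Fancd2KO, Foxo3aKO, DKO and WT arrays, 1 point per array. Open points for Klf7 are its dimmer probe set, and the dotted line is the floor of 5.51 log2. Klf2, Klf4 and Klf6 stand higher on both single-knockout arrays than on the DKO and WT arrays.

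Among the activators, Klf4, a regulator of monocyte differentiation and of cell cycle exit, differed most from WT. Its signal was 8.35 log2 in Fancd2KO, 8.25 in Foxo3aKO, 7.40 in DKO and 6.76 in WT. Every knockout array was above WT, and both single knockouts were above DKO. The differences from WT were 1.58 in Fancd2KO, 1.49 in Foxo3aKO and 0.64 log2 in DKO. Only 51 of 12041 genes had a larger difference in Fancd2KO and 63 in Foxo3aKO.

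Klf6, a widely expressed factor induced by injury and growth signals, stood at 9.71 log2 in Fancd2KO, 9.75 in Foxo3aKO, 8.56 in DKO and 8.54 in WT. The arrays formed a high pair, the single knockouts, and a low pair, DKO and WT. Klf6 was higher than WT by 1.16 log2 in Fancd2KO and 1.20 in Foxo3aKO, and the DKO difference of 0.02 was far inside the probe set disagreement.

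Klf2, which maintains quiescence of T cells and of endothelium, had signals of 8.36 log2 in Fancd2KO, 8.71 in Foxo3aKO, 7.30 in DKO and 7.64 in WT. The single knockouts were again above the other arrays, and here DKO was lowest. The differences from WT were 0.72 for Fancd2KO, 1.07 for Foxo3aKO and -0.34 for DKO. The last of these is smaller than the disagreement of 0.52 between probe sets.

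Klf7, an activator best known from neurons, did not share this order. Its brighter probe set gave 7.19 log2 in Fancd2KO, 7.63 in Foxo3aKO, 6.91 in DKO and 7.46 in WT. Its dimmer probe set gave 5.34, 6.58, 5.20 and 5.61 on the same arrays and was under the floor in Fancd2KO and DKO. Both probe sets were highest in Foxo3aKO and lowest in DKO. They disagreed on the size of the Foxo3aKO difference from WT, which was 0.17 with the brighter and 0.97 with the dimmer one.

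Among the Sin3A-binding repressors, Klf9, a factor induced by glucocorticoids and thyroid hormone, was higher than WT on every knockout array. Each difference exceeded the SD of the probe set disagreement, which was otherwise the case only for Klf4 among the members. The DKO differences of both genes were under the 0.96 log2 that a small share of genes with 2 probe sets exceeded. Klf9 had 7.06 log2 in Fancd2KO, 6.85 in Foxo3aKO, 6.59 in DKO and 5.79 in WT. The differences from WT were 1.27 in Fancd2KO, 1.05 in Foxo3aKO and 0.80 in DKO. Its WT signal was close to the floor and under the G and C rich control level of that array, 6.25, so the size of the differences is uncertain. Each of them subtracts this same WT value.

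Klf13, known as an activator of the chemokine gene Ccl5 in T cells besides its repressor role, stood at 7.88 log2 in Fancd2KO, 7.68 in Foxo3aKO, 7.46 in DKO and 7.23 in WT. The order of the arrays matched that of Klf9 within a narrower range, 0.65 log2. The differences from WT were 0.65, 0.45 and 0.23, and only that in Fancd2KO exceeded the SD of the probe set disagreement. It was under the 0.92 log2 that a small share of genes with 2 probe sets exceeded there. Klf10, an early target of TGF-beta signalling, gave 7.94 log2 in Fancd2KO, 7.35 in Foxo3aKO, 7.14 in DKO and 7.47 in WT. It was highest in Fancd2KO, by 0.47 over WT, and its other differences from WT were -0.12 for Foxo3aKO and -0.32 for DKO, all within the disagreement.

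Klf3, the CtBP-binding repressor, was lower than WT on both single-knockout arrays. Its signal was 7.38 log2 in Fancd2KO, 7.45 in Foxo3aKO, 7.91 in DKO and 7.99 in WT. The single knockouts formed the low pair here, the reverse of Klf6 in direction but within a narrower range, 0.61 log2. The differences from WT were -0.61 for Fancd2KO, -0.54 for Foxo3aKO and -0.08 for DKO.

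**Figure D2:**
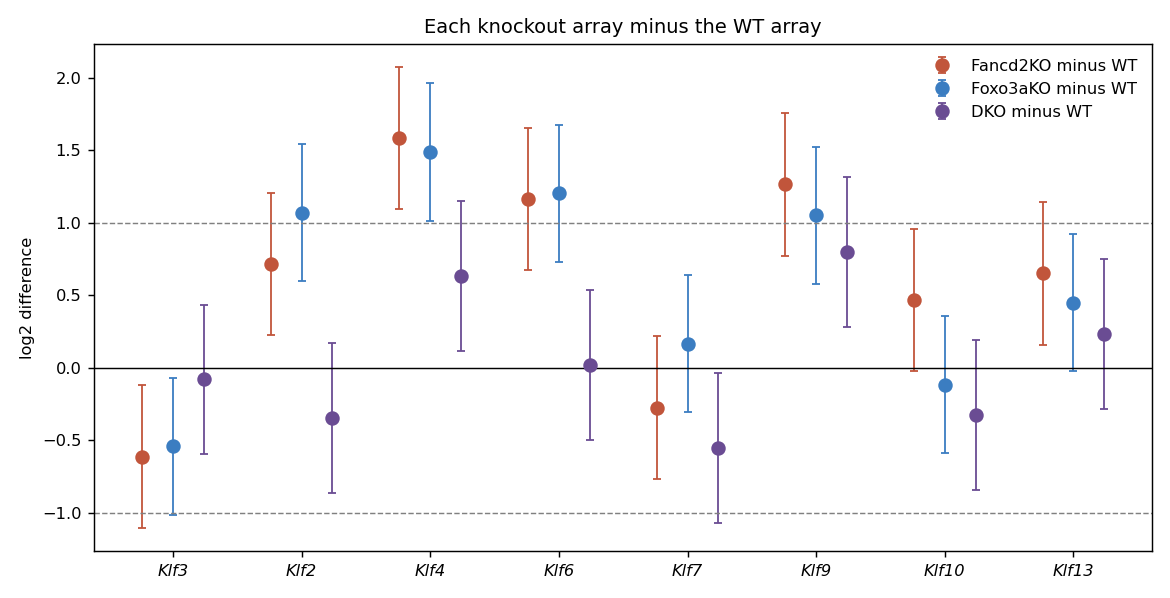
Difference of each knockout array from the WT array (y axis, log2) for the 8 Kruppel-like factors, with 1 point per comparison. Bars are the SD of the disagreement between both probe sets of 728 genes, not a replicate error, and dashed lines mark 2-fold. Klf4, Klf6 and Klf9 pass 2-fold in both single knockouts, Klf2 in Foxo3aKO, and no member does in DKO.

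The design also sets the double knockout against each single one. In DKO minus Fancd2KO, 7 of 8 members were lower and 2 of them at least 2-fold lower, Klf6 by -1.14 and Klf2 by -1.06 log2, where 1.51% of all genes were. Klf4 followed at -0.95 and Klf10 at -0.79, and 0 members were at least 2-fold higher (1.5% of all genes). In DKO minus Foxo3aKO, the same 7 members were lower and 2 at least 2-fold lower, Klf2 by -1.41 and Klf6 by -1.19, where 2.18% of all genes were, and 0 were at least 2-fold higher (1.18%). The member that was higher in DKO in both comparisons was Klf3, by 0.53 over Fancd2KO and 0.46 over Foxo3aKO. Of all genes, 47.4% were higher in DKO than in Fancd2KO and 54.0% higher than in Foxo3aKO. As the members were picked with these arrays known, the counts are not evidence about the family. The probe set disagreement was 0.52 for DKO minus Fancd2KO and 0.50 for DKO minus Foxo3aKO. Both comparisons use the same DKO array and share its error.

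If the effects of both losses added up on the log2 scale, DKO would equal Fancd2KO plus Foxo3aKO minus WT. The DKO signal was below this sum for 7 of 8 members, with 4 at least 2-fold below, where 4.43% of all genes were, and 1 at least 2-fold above, where 3.99% were. Of all genes, 52.8% lay above their sum. Klf4 had 7.40 log2 in DKO against an expectation of 9.83, a difference of -2.44. Klf6 had 8.56 against 10.91, a difference of -2.35, and Klf2 had 7.30 against 9.43, a difference of -2.13. These 3 activators lay furthest from the sum among the members. Klf9 lay -1.52 from it, while Klf3 was on the other side, at 7.91 against 6.84 and a difference of 1.07. Klf13, Klf10 and Klf7 differed from the sum by -0.87, -0.68 and -0.45. With its dimmer probe set, under the floor in Fancd2KO and DKO, Klf7 differed by -1.11. Such a difference draws on 4 arrays, and the probe set disagreement for it was 0.72 log2.

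**Figure D3:**
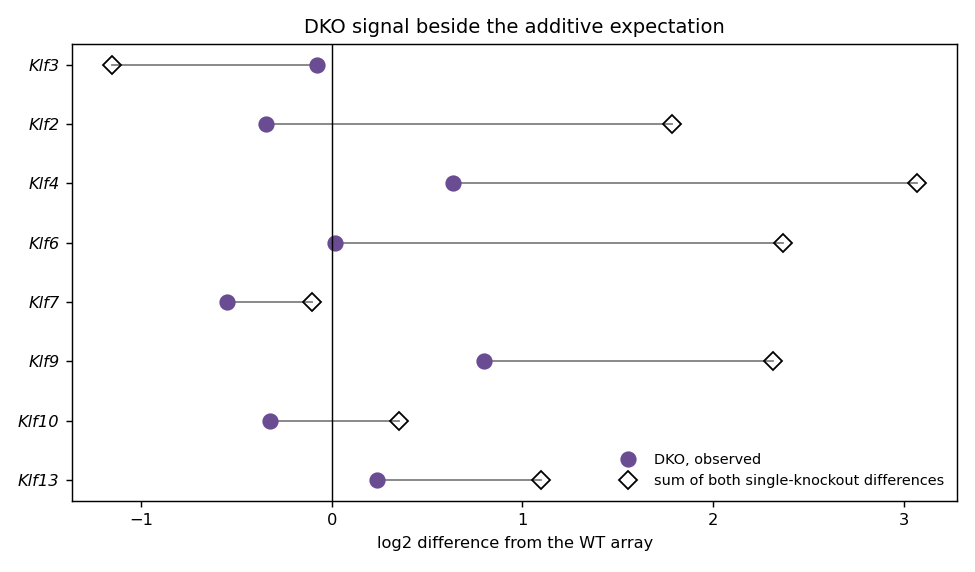
DKO signal of each Kruppel-like factor (filled circles) beside the sum of both single-knockout differences (open diamonds), each as a log2 difference from the WT array on the x axis. The DKO value lies below the sum for every member except Klf3, with differences from it of -2.44 for Klf4, -2.35 for Klf6 and -2.13 for Klf2.

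The genes whose profile over the 4 arrays was most like that of a member were found by the root mean square (RMS) distance between values centred on each gene's mean, among 10869 named genes, for the members with a range of at least 1 log2. For Klf2 they were the AP-1 gene Fos (0.12 log2), the secreted factor gene Prok2 (0.12) and the zinc finger gene Zbtb10 (0.13). For Klf6 they were Cd28 (0.07), which encodes a T cell co-stimulatory receptor, Zbtb10 (0.08) and the immediate early gene Ier2 (0.10). Fos had 9.50 log2 in Fancd2KO, 9.77 in Foxo3aKO, 8.36 in DKO and 8.47 in WT, and Ier2 had 9.50, 9.34, 8.35 and 8.39. For Klf4 they were Klrc1 (0.12), an NK cell receptor gene, the polo-like kinase gene Plk2 (0.14) and Pawr (0.14), and for Klf9 they were Spry1 (0.08), an inhibitor of growth factor signalling, the sugar phosphate epimerase gene Rpe (0.08) and the aryl hydrocarbon receptor gene Ahr (0.09). Prok2, Klrc1 and Pawr lay under the floor in DKO and WT, and Cd28 did so in DKO. Among the members themselves, Klf2 and Klf6 were closest, at 0.18, followed by Klf4 and Klf6 at 0.22 and Klf4 and Klf9 at 0.24. With 4 points per gene, likeness is a description of these arrays.

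Of the rest of the family, all 9 other Klf genes were measured and 6 reached the floor. In each of the 3 comparisons with WT, 0 of these 6 were at least 2-fold apart in either direction, with medians of 0.16 in Fancd2KO, -0.11 in Foxo3aKO and -0.28 log2 in DKO. Klf11, a close relative of Klf10, differed by 0.81 in Fancd2KO, 0.36 in Foxo3aKO and -0.06 in DKO. The erythroid factor Klf1 differed by -0.68, -0.45 and -0.93, and Klf5 by -0.49, 0.06 and -0.92, so both lay further from WT in DKO than any of the 8 members. These 3 genes are named because of their values. Of 9 related Sp factor genes, 8 were measured and 4 reached the floor, with medians of -0.17, -0.21 and -0.29 in the same order and 0 of 4 at least 2-fold apart.

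Lists of genes whose products work with or upstream of Klf factors were also counted. Of 14 co-repressors, co-activators and ubiquitin ligases, among them CtBP, Sin3A and histone deacetylase genes, 0 were at least 2-fold apart from WT on any knockout array, and their medians ran from -0.07 to 0.03. The largest differences, named because of their values, were those of the ubiquitin ligase gene Fbxo32 (-0.69 in Fancd2KO, -0.89 in Foxo3aKO and -0.75 in DKO) and of the deacetylase gene Hdac1 (-0.77, -0.57 and -0.35). Few of all genes pass 2-fold, so a count of 0 says little about a list of this size. The count was also 0 for 7 genes of the route from the kinases MEK5 and ERK5 to MEF2, which induces Klf2 and Klf4, with medians of 0.07, 0.24 and 0.11. It was 0 again for 9 receptor and Smad genes upstream of Klf9 and Klf10, with medians of -0.08, -0.14 and 0.10.

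Known target genes of Klf2, Klf4, Klf6 or Klf13 went in several directions, and many have other regulators. Of 10 compared, 3 were at least 2-fold higher in Fancd2KO, 2 in Foxo3aKO and 0 in DKO, with 0 at least 2-fold lower in each. The sphingosine receptor gene S1pr1, a Klf2 target in T cells, had 8.30 log2 in Fancd2KO, 7.10 in Foxo3aKO, 6.43 in DKO and 6.83 in WT. Cdkn1a, the gene of the cell cycle brake p21 and a target of Klf4 and Klf6, had 10.22, 8.14, 7.48 and 7.21 on the same arrays. Both genes were highest in Fancd2KO. S1pr1 differed by 1.20 and Cdkn1a by 2.08 log2 between Fancd2KO and Foxo3aKO, and the same difference was -0.36 for Klf2, 0.09 for Klf4 and -0.04 for Klf6. The part of the Klf factors in the differences of their target genes was not tested. Plaur, the urokinase receptor gene, differed from WT by 0.96 in Fancd2KO, 1.54 in Foxo3aKO and -0.23 in DKO. Cd69, whose product is an activation antigen that removes S1pr1 from the cell surface, differed by 1.37, 1.18 and -0.27. Of 7 glucocorticoid-induced genes listed beside Klf9, 1 was at least 2-fold higher on each knockout array: the kinase gene Sgk1, by 1.20 in Fancd2KO, 1.05 in Foxo3aKO and 1.24 in DKO. Its WT signal of 5.30 log2 was under the floor, and with it raised to the floor the differences were 0.99, 0.85 and 1.03, at least 2-fold in DKO only. Fkbp5, named because it is a standard glucocorticoid target, differed by 0.04, -0.05 and 0.03.

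Markers of other states and cell types differed beside the members. Of 13 stimulus-induced immediate early genes, 13 were above WT in Fancd2KO and 13 in Foxo3aKO, with medians of 1.11 and 1.10 log2, and the DKO median was 0.04. Of all genes, 48.1% were above WT in Fancd2KO and 44.6% in Foxo3aKO. At least 2-fold higher were 8 in Fancd2KO, 7 in Foxo3aKO and 1 in DKO, beside 1.68%, 1.81% and 1.37% of all genes. The mean signal of the list was 9.73 log2 in Fancd2KO, 9.50 in Foxo3aKO, 8.49 in DKO and 8.34 in WT. Egr1, a zinc finger gene of this list named because of its values, had 10.71 log2 in Fancd2KO, 10.24 in Foxo3aKO, 8.53 in DKO and 8.57 in WT. The list median thus separated the single knockouts from DKO and WT as Klf6 did. Single genes of the list varied in DKO, from -0.62 against WT for Egr2, under the floor on both arrays, to 1.05 for Atf3. The part of these genes in the Klf differences was not tested.

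Neutrophil markers, 10 of 10 measured, had median differences of -0.46 in Fancd2KO, 0.36 in Foxo3aKO and -0.60 in DKO, and all 10 were over the floor on every array. They were bright, with a mean signal of 10.62 log2 in Fancd2KO, 11.62 in Foxo3aKO, 10.47 in DKO and 11.20 in WT. The 10 measured gate and stem cell markers had means of 8.28, 8.01, 8.11 and 8.20 on the same arrays. Monocyte and macrophage markers, 9 of 10 measured, had medians of -0.49, 0.46 and 1.76, with 6 of 9 at least 2-fold higher in DKO. The other 3 were lower than WT there: F13a1 by -1.21, Ccr2 by -0.81 and Ly6c2 by -0.38. Over all 9 the mean signal was 6.89 log2 in Fancd2KO, 8.04 in Foxo3aKO, 8.80 in DKO and 7.41 in WT. T cell markers, 6 of 7 measured, had a mean signal of 5.56, 5.96, 5.49 and 5.26 log2 on the Fancd2KO, Foxo3aKO, DKO and WT arrays, and 3 of 6 were over the floor in Fancd2KO, 3 in Foxo3aKO, 2 in DKO and 2 in WT. The 5 of them that were compared had medians of 0.33, 0.44 and 0.12, with 1 at least 2-fold higher in Fancd2KO and 1 in Foxo3aKO. Cd3d, a T cell receptor subunit gene, had 6.89 log2 in Fancd2KO, 8.64 in Foxo3aKO, 7.40 in DKO and 6.40 in WT, and Cd3e differed from WT by 1.06 in Fancd2KO, which became 0.31 when values under the floor were set to it. Endothelial markers, 8 of 8 measured, had mean signals of 6.36, 6.14, 6.34 and 6.22, with 4 of 8 over the floor on every array. Erythroid markers, 6 of 8 measured, had medians of -0.68, -0.85 and -0.16, and B cell markers, 6 of 7 measured, had medians of -0.25, -0.58 and -0.51. The part of these cells in the Klf differences was not tested.

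**Figure D4:**
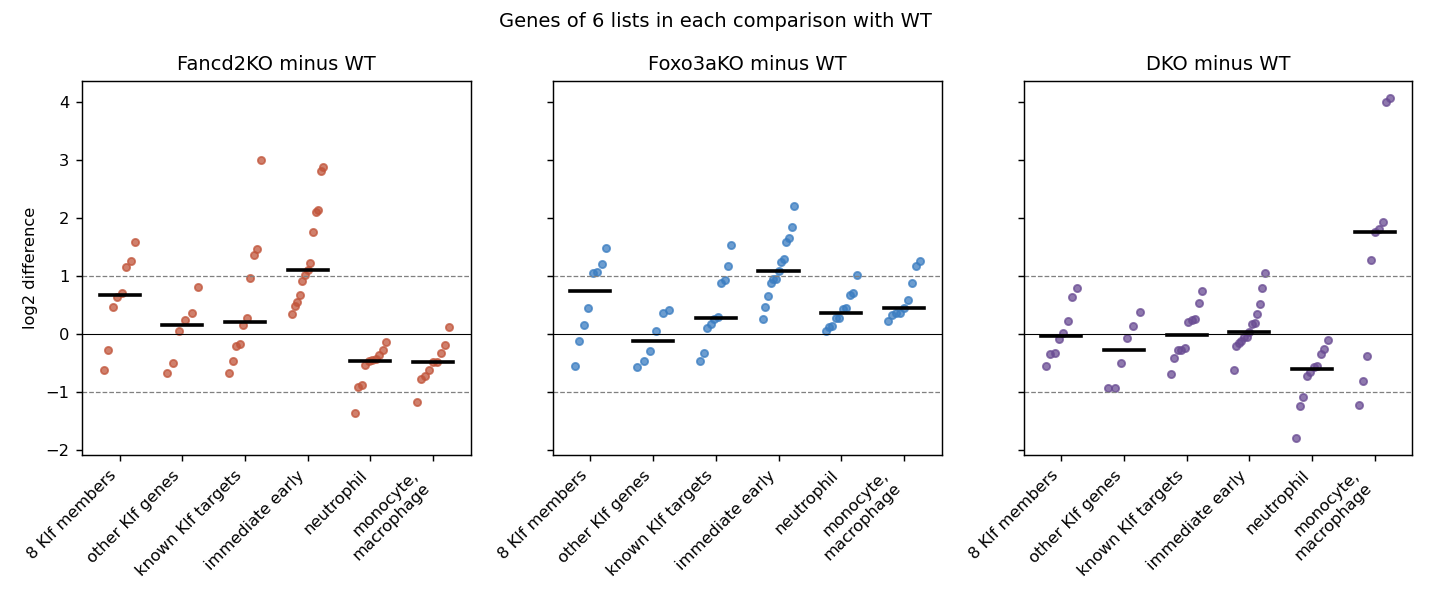
Differences from the WT array (y axis, log2) for the 8 Kruppel-like factors and 5 other lists, 1 panel per knockout and 1 point per gene that reached the floor. Thick bars are medians and dashed lines mark 2-fold. The immediate early genes have medians of 1.11, 1.10 and 0.04 in Fancd2KO, Foxo3aKO and DKO, beside 0.68, 0.75 and -0.03 for the Kruppel-like factors.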

How the data were processed

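Per the labels, RNA from the sorted cells was biotin-labelled and hybridised to 4 Affymetrix Mouse Gene 2.0 ST arrays. The deposited table holds log2 signals that the authors made, per the range of its values (1.48 to 14.02). Affymetrix Expression Console was used, per the submitters' processing notes, and the sources used here give neither its version nor the summarisation and normalisation. The arrays' sorted values lay within 0.0889 log2 of their mean at every rank, so no further normalisation was applied.

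Genes were taken from GEO's annotation of the platform: 23521 had 1 symbol, 1814 several and 16010 no listed gene. The probe set with the highest mean stood for its gene. All 8 members matched the RefSeq table by Entrez identifier. Log2 values were subtracted, and no test was made because each genotype has 1 array. The number of arrays limits the precision. The members and lists were chosen with earlier results of these data known. Named genes are the members and the 3 profiles most like each member with a range of at least 1 log2. Some list genes at least 2-fold apart from WT are also named, with exceptions marked in the text. Other list genes passed 2-fold and are not named. Differences and motif counts were tested on simulated data. Alternatives were quantile normalisation, median centring, cyclic loess (limma 3.58.1, R 4.3.3), the mean of all probe sets, no floor, dim signals raised to the floor, and thresholds of 1.5 and 3-fold. Python 3.11.15 with pandas 2.3.3 was used.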

Additional observations from a re-analysis of the deposited data

Results flagged for a closer look

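The effect of losing 1 gene had the opposite sign with and without the other gene for several members, comparing 1 array with 1 array, and the difference was not tested. How many of all genes changed sign in this way was not counted, so the list does not set the members apart from other genes. For both losses this held for Klf4, whose difference between the effects was -2.44 log2, Klf6 (-2.35), Klf2 (-2.13), Klf9 (-1.52), Klf3 (1.07) and Klf13 (-0.87). Klf2 differed by -1.06 on loss of Foxo3a in Fancd2KO cells and by 1.07 on the same loss in WT cells. For Klf10 (-0.68) it held only for loss of Fancd2, and for Klf7 (-0.45) only for loss of Foxo3a. Only for Klf2, Klf4 and Klf6 did every effect exceed the SD of the probe set disagreement. Among them, only Klf6 also had every effect over the level that a small share of the 728 genes exceeded, at most 1.01 log2. The SD was 0.52 for loss of Foxo3a in Fancd2KO cells and 0.50 for loss of Fancd2 in Foxo3aKO cells. These effects were -0.47 and -0.25 for Klf9, -0.42 and -0.21 for Klf13, and 0.53 and 0.46 for Klf3. The effects of opposite sign for Klf10 and Klf7 were all within the SD. The effects of both losses share all 4 arrays, so each gene has 1 value for both.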

How the results depend on the processing

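Each member difference was recomputed under 6 alternatives, 288 values in all, and 288 stayed within the probe set disagreement of the reported value, with a largest shift of 0.40 log2. That shift was Klf7 in Foxo3aKO minus WT, 0.57 with the mean of both probe sets, which also put Klf7 at -1.05 in DKO minus Foxo3aKO, past 2-fold. Many of the 288 values could not move. The probe set used for each member was over the floor on all 4 arrays. Dropping the floor or raising dim signals to it therefore changed no member difference, and the mean of all probe sets could change only Klf7. Only the alternatives in normalisation could move every member, and the arrays' sorted values already lay within 0.0889 log2 of their mean. The largest shift they gave was 0.08 log2, for Klf6 in DKO minus Foxo3aKO. Staying within the much larger probe set disagreement was therefore no real check of the member differences. The sign turned in 1 value, Klf6 in DKO minus WT, at -0.01 with each array centred on its median. Member medians moved by at most 0.07. Among the counts of members, that in Foxo3aKO minus WT was 3 in place of 4 with each array centred on its median, where Klf9 stood at 0.99, and that in DKO minus Foxo3aKO was 3 in place of 2 with the mean of all probe sets. Other changes came with the fold threshold. At 1.5-fold, 5 members were higher (5.51% of all genes) and 1 lower (6.29%) in Fancd2KO minus WT, 2 were higher in DKO minus WT (5.05%), 4 were lower in DKO minus Fancd2KO (6.1%) and 4 in DKO minus Foxo3aKO (6.52%). At 3-fold, 0 were higher in Fancd2KO (0.424%) or Foxo3aKO minus WT (0.49%), 0 were lower in DKO minus Fancd2KO (0.382%) or DKO minus Foxo3aKO (0.648%), and 0 were above the additive expectation (1.0%), while 3 were below it (1.63%). No alternative took the G and C content of probes into account. No paired analysis was possible because each genotype has 1 array.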
